A study of Mus musculus with 8 samples.

Results

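The genes of the mouse major histocompatibility complex (MHC) were taken as every gene in the count files whose symbol starts with H2-, which gave 42 of 23337 genes. They fell into 3 genes grouped as classical class I (*H2-K1*, *H2-D1* and *H2-K2*, which GENCODE annotates as a pseudogene), 8 genes of the Q group, 7 of the T group, 12 of the M group, 5 genes of the class II presenting chains, 5 of the class II peptide-loading chains and 2 H2-K region genes that encode no MHC chain. Of these, 26 had 10 or more counts in at least 2 of the 8 samples and were tested with 14379 genes in all.

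RNA was sequenced from the liver of C57BL/6 mice aged 12 weeks, with 2 samples in each of 4 groups. WT mice were compared with mice labelled Hrd1-/-, here called HRD1Alb, in which floxed Hrd1 (gene symbol *Syvn1*) is deleted by Cre from the albumin promoter. That promoter drives Cre in hepatocytes, so macrophages should keep the gene. Livers of both genotypes were taken from mice fasted overnight and from mice given food for 4 h once the fast ended. The study elsewhere used floxed mice without Cre as controls, but the labels of these samples say only WT and do not say whether samples are single animals, so p-values measure the spread between the samples as deposited.

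Class I molecules are made by nearly all nucleated cells. They pair a heavy chain with β2-microglobulin and show peptides cut by the proteasome to CD8 T cells. Class II molecules are dimers of an alpha and a beta chain made mainly by macrophages, dendritic cells and B cells, and they show peptides from endocytosed proteins to CD4 T cells. In liver, Kupffer cells, the resident macrophages, are a main class II-bearing population, and *H2-Q10* is known as a secreted class I heavy chain made by hepatocytes.

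Of the 42 genes, 38 had a position in GENCODE M21, all on chromosome 17 of GRCm38. The class II presenting genes were *H2-Ab1* at chr17:34257689-34269419, *H2-Aa* at chr17:34282744-34287823, *H2-Eb1* at chr17:34305867-34316674 and *H2-Eb2* at chr17:34325665-34341412. Among class I genes, *H2-K1* lay at chr17:33996017-34000347, *H2-D1* at chr17:35262730-35267499, *H2-Q10* at chr17:35470089-35474563 and *H2-T23* at chr17:36029773-36032855. Counts were taken over whole genes, so no exon or intron can be told apart.

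Promoters were read from RefSeq (GRCm38.p6) for 31 members, which gave 34 windows from 250 bases before to 50 bases after an annotated start. Both strands were searched for Y box letters (GATTGG), a kappa B site (GGGGATTCC), an interferon response motif (GAAANNGAA) and a gamma activated motif (TTCNNNGAA). The Y box is an inverted CCAAT box shared by class I and class II promoters. The following sequences are the 200 bases before the start, 5′ to 3′ on the gene's own strand, with Y box and kappa B letters in capitals. They are shown because the class II genes, the class I genes *H2-K1* and *H2-Q6*, the liver-rich *H2-Q10* and a silent M gene carry these letters differently.
*H2-Aa*, chr17:34287824-34288023, - strand: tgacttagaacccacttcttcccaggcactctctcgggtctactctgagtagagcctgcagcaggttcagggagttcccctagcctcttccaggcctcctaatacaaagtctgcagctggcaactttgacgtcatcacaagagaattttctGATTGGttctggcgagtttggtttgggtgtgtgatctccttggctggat
*H2-Eb1*, chr17:34305667-34305866, + strand: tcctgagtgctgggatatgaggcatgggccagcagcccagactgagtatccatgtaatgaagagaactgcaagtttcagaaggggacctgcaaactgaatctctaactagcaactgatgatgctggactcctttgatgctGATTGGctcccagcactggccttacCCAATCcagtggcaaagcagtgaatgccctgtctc
*H2-K1*, chr17:34000348-34000547, - strand: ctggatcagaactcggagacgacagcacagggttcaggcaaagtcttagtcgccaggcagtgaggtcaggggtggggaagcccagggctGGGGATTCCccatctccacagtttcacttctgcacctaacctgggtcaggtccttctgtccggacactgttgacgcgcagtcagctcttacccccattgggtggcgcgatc
*H2-Q6*, chr17:35424650-35424849, + strand: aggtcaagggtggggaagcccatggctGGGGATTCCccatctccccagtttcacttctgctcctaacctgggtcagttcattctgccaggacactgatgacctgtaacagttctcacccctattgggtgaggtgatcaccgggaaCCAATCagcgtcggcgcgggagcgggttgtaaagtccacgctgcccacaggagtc
*H2-Q10*, chr17:35469889-35470088, + strand: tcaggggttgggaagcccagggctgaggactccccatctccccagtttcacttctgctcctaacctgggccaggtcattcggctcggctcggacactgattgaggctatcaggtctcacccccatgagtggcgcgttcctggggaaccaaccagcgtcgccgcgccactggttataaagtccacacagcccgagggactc
*H2-M10.5*, chr17:36772710-36772909, + strand: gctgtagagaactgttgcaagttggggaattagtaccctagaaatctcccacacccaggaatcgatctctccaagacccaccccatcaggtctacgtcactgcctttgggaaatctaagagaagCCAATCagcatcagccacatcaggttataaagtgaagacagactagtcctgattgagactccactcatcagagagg

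The Y box letters GATTGG were present in 27 of 34 member windows (79.4%) and in 16.1% of the 32851 mouse promoter windows. They lay on the gene's own strand in 8 of 9 class II windows. On the other strand, where they read CCAATC, they lay in 18 of 24 class I windows, of which *H2-T22* held a match on each strand. ATTGG after a base other than G was not counted. On their own strand, *H2-K1* reads CATTGG and *H2-Q6* reads TATTGG. The strand of the class I matches therefore does not give the strand of the class I Y box. In *H2-Aa* the match began 49 bases and in *H2-Eb1* 60 bases before the start, and *H2-Eb1* held another on the other strand 35 bases before it. In *H2-D1* it began 53 bases and in *H2-Q6* 55 bases before the start. In *H2-K1* it began 6 bases before one annotated start and just past the other, which is the one printed. *H2-Q10* had none of the 4 motifs. The kappa B letters were in 5 member windows (14.7%), belonging to *H2-K1*, *H2-D1*, *H2-Q6* and *H2-Q7*, against 0.250% of all windows. The interferon response letters were in 2 member windows (5.88%, against 8.56% of all) and the gamma activated letters in 3 (8.82%, against 8.30%). The windows of *H2-K1*, like those of *H2-M9*, overlap each other and count once for each start. A match of letters is a description of the window and says nothing of which factor is bound there.

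**Figure D1:**
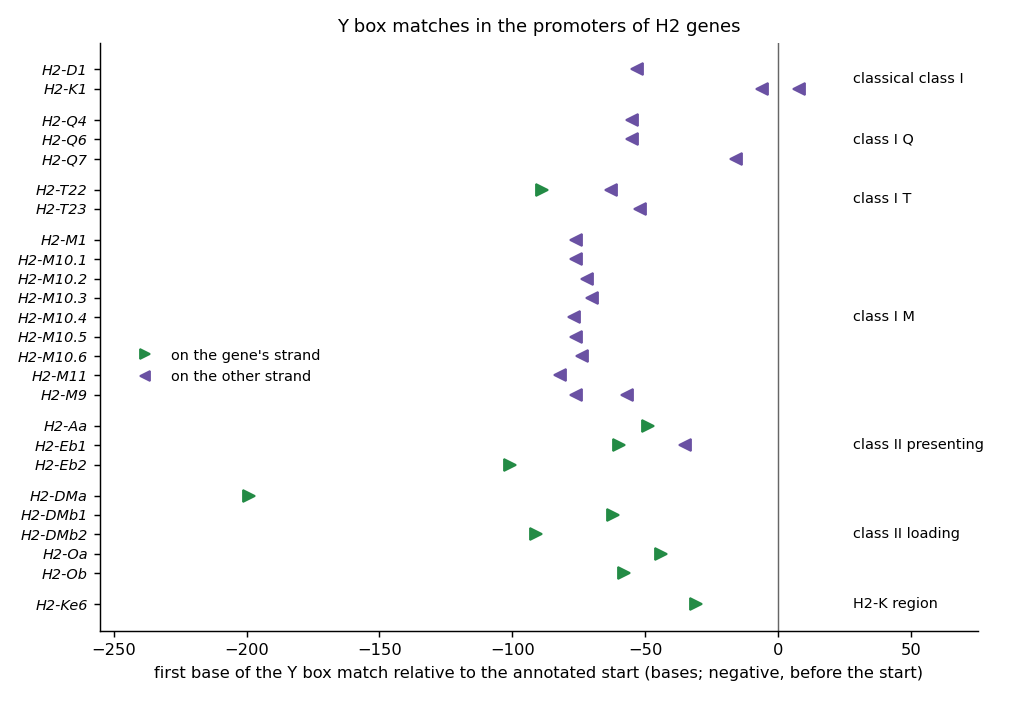
Position of each match to the Y box letters GATTGG in the RefSeq promoter windows of H2 genes, in bases from the annotated start on the x axis, with genes grouped by class on the y axis. Right-pointing marks are matches on the gene's own strand, which 8 of 9 class II windows hold. Left-pointing marks are matches on the other strand, reading CCAATC, which 18 of 24 class I windows hold. ATTGG after a base other than G is not marked.

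Library totals were 40210576 to 49117080 counts, so that 3 counts correspond to 0.0508 to 0.0788 TMM-normalized CPM, the count scaled by library size. One library stood apart: replicate 2 of the refed HRD1Alb group differed at least 2-fold from replicate 1 at 3215 of the tested genes, against 429 to 1155 in the other groups. The log2 ratio of replicate 2 over replicate 1 was lower for genes with longer transcripts (rho -0.590 by Spearman's method over 13013 genes, which are not independent). Values of members and gene lists that changed without replicate 2 are therefore given with and without it. Leaving it out also raised the number called over all genes tested in every comparison. A higher count without it is therefore not by itself a result about the members or a list. The targeted gene *Syvn1* was at 111 and 99.8 CPM in fasted WT liver and 32.6 and 31.5 CPM in fasted HRD1Alb liver. After refeeding it was at 637 and 305 CPM in WT and at 453 and 132 CPM in HRD1Alb, so the refed genotypes overlapped. The count covers the whole gene, including parts outside a floxed deletion, so it does not check the label of refed HRD1Alb replicate 1, and refed directions below are those of the libraries as labelled.

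Levels between genes were compared as CPM per kb of transcript, averaged over the 8 samples. *H2-K1*, a classical class I heavy chain, was highest at 888 CPM per kb. *H2-Q10* followed at 700 CPM per kb, and the *H2-K1* level per kb was 0.984 to 1.73 times that of *H2-Q10* in single samples, so their order was not the same in every sample. *H2-D1*, the other classical heavy chain, was at 293 CPM per kb and *H2-T23*, which encodes the Qa-1 ligand of NK cell receptors, at 97.1 CPM per kb. *H2-K1*, *H2-D1* and *H2-Q10* together held 93.1% to 94.9% of all class I CPM. The class II chains were far lower, at 19.7 CPM per kb for *H2-Aa*, 15.2 for *H2-Ab1* and 10.6 for *H2-Eb1*. Per kb, *H2-K1* was 119 times *H2-Aa* in both fasted WT samples and 42.8 and 29.1 times in the fasted HRD1Alb samples.

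Several members gave no counts. *H2-Q7*, *H2-Q9*, *H2-T9* and 7 M genes (*H2-M1*, *H2-M9*, *H2-M10.1*, *H2-M10.3*, *H2-M10.4*, *H2-M10.5* and *H2-M11*) were at 0 in all 8 libraries, which allows at most 0.0508 to 0.0788 CPM in each by counting error alone. *H2-Ea-ps*, the alpha chain partner of *H2-Eb1*, had 1 count in 1 library. C57BL/6 mice carry the H2-b haplotype, which is known not to express this chain. The other untested genes (*H2-M10.2*, *H2-M10.6*, *H2-M2*, *H2-M5* and *H2-T3*) had 27 counts or fewer over all libraries.

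Read sharing was measured as the percentage of a transcript's 50-base words found in a transcript of another gene. Of 38 members with a transcript, 10 shared none, among them *H2-Aa*, *H2-Ab1*, *H2-Eb1* and *H2-DMa*, and 11 shared 20% or more. *H2-DMb1* shared 27.2% with *H2-DMb2*, *H2-T10* shared 42.9%, mostly with *H2-T22*, *H2-Q1* shared 22.9% and *H2-T23* 29.8%. For these genes, reads could be split or dropped by the authors' counting. *H2-Q7*, at 0 counts, shared 34.9% of its words, most with *H2-Q6*, and *H2-Q9* and *H2-T9* had no transcript to compare. Their 0 counts cannot tell a lack of expression from dropped reads. *H2-K1*, *H2-Q10* and *H2-D1* shared 8.79%, 8.03% and 14.3%.

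The comparison of HRD1Alb with WT asks what loss of HRD1 in hepatocytes does to liver transcripts in each feeding state. The summed class II level was higher in the HRD1Alb samples in both states. With all 8 samples, single class II genes passed the test in refed but not in fasted liver, which is not a test of a difference between the states. *H2-K1* and *H2-D1*, the classical class I chains, passed the test in neither state. Summed over the class II genes, fasted WT samples had 23.8 and 25.4 CPM and fasted HRD1Alb samples 54.4 and 86.8 CPM, 2.87-fold between the group means. Refed WT samples had 31.6 and 22.96 CPM and the refed HRD1Alb samples 88.3 and 178 CPM, 4.88-fold, or 3.24-fold with replicate 1 of HRD1Alb alone. No HRD1Alb sample fell within the WT range in either state.

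*H2-Aa*, the alpha chain of I-A, was at 8.62 and 9.37 CPM in fasted WT and 20.2 and 31.8 CPM in fasted HRD1Alb. In the refed libraries it was at 11.0 and 8.36 CPM in WT and 30.9 and 57.9 CPM in HRD1Alb. All HRD1Alb values lay above all WT values, and the refed HRD1Alb samples were themselves wide apart. Its beta chain *H2-Ab1* was at 6.23 and 6.35 CPM in fasted WT, 14.3 and 23.6 in fasted HRD1Alb, 9.26 and 6.02 in refed WT and 26.4 and 55.0 in refed HRD1Alb. *H2-Eb1*, the beta chain of I-E, was at 6.48 and 6.74 CPM in fasted WT, 14.5 and 23.8 in fasted HRD1Alb, 8.33 and 5.70 in refed WT and 24.3 and 51.9 in refed HRD1Alb. The groups did not overlap for either beta chain. Per kb, *H2-Aa* was 1.13 to 1.58 times *H2-Ab1* and 1.65 to 2.17 times *H2-Eb1* across the 8 samples.

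*H2-DMa* and *H2-DMb1* encode the DM dimer, which exchanges the invariant chain fragment for peptide on class II. *H2-DMa* was at 0.723 and 1.02 CPM in fasted WT, 2.03 and 3.18 in fasted HRD1Alb, 0.963 and 1.16 in refed WT and 2.39 and 5.44 in refed HRD1Alb. *H2-DMb1* was at 0.773 and 0.827 CPM in fasted WT, 1.86 and 2.45 in fasted HRD1Alb, 0.791 and 0.814 in refed WT and 2.55 and 6.43 in refed HRD1Alb. Both were above WT in every HRD1Alb sample. *H2-Oa* and *H2-Ob*, the chains of DO, which holds DM back, stood at 0.146 and 0.338 CPM per kb and neither was called. The refed log2 fold change by edgeR was 2.16 (SE 0.64, adjusted p = 0.0683) for *H2-Oa* and 0.19 (SE 0.39) for *H2-Ob*. The fasted values were 0.86 and 0.44. *H2-Oa* had only 1 to 6 counts in the WT libraries.

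**Figure D2:**
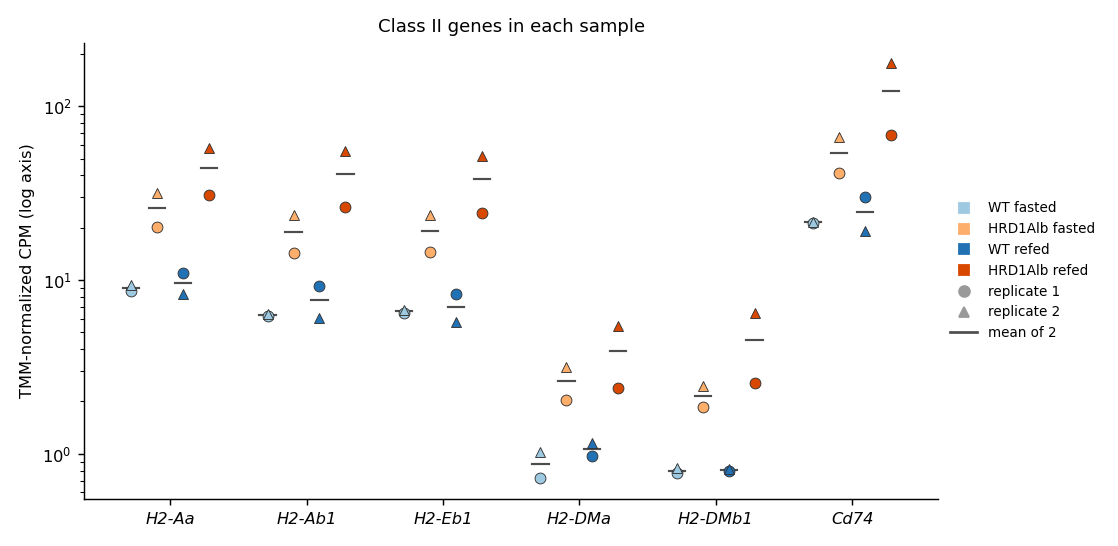
CPM on a log axis for 5 class II genes and the invariant chain *Cd74* in each of the 8 samples, with the group in colour, replicate 1 as circles, replicate 2 as triangles and short lines for the mean of 2. The HRD1Alb points lie above the WT points of the same feeding state for every gene shown, for example *H2-Aa* at 20.2 and 31.8 against 8.62 and 9.37 CPM after fasting.

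In the edgeR quasi-likelihood test over all genes, 7 of 26 tested members rose in refed HRD1Alb liver at an adjusted p below 0.05 and 0 fell. Over all genes tested, 7.06% rose and 4.84% fell in this comparison. The 7 were *H2-Aa*, *H2-Ab1*, *H2-Eb1*, *H2-DMa*, *H2-DMb1*, *H2-Q1* and *H2-T10*, that is 5 of 9 tested class II genes and 2 of 15 tested class I genes. The log2 fold change was 2.20 (SE 0.36, adjusted p = 0.0158) for *H2-Aa*, 2.41 (SE 0.42, adjusted p = 0.0190) for *H2-Ab1* and 2.44 (SE 0.42, adjusted p = 0.0185) for *H2-Eb1*. *H2-DMb1* rose by 2.48 (SE 0.46, adjusted p = 0.0232) and *H2-DMa* by 1.88 (SE 0.46, adjusted p = 0.0434). The median log2 fold change was 2.30 over the 4 tested presenting genes, 1.88 over the 5 loading genes and 0.045 over all genes tested. These medians include *H2-Eb2*, *H2-DMb2* and *H2-Oa*, which reached 10 counts only in HRD1Alb libraries. They were tested only through the group where they are high, so their direction is not independent of the filter. With 10 or more counts required in every library, the same 7 of 20 tested members rose, where 944 of all 12539 genes rose. Leaving out either refed WT library removed nearly every call over all genes in this comparison. Leaving out either fasted HRD1Alb library removed most of them. A lower count of members called in these fits is therefore not by itself a result about the members. The count depended on single libraries: it was 0 with either refed WT library left out, 3 with either fasted HRD1Alb library left out and 13 higher with 2 lower without refed HRD1Alb replicate 1, where 25.8% of all genes rose and 28% fell. Without refed HRD1Alb replicate 2 it was 6 higher and 2 lower, where 12.3% of all genes rose and 11.9% fell, and *H2-Aa*, *H2-Ab1*, *H2-Eb1* and *H2-DMb1* stayed called at 1.68, 1.79, 1.79 and 1.67.

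In fasted liver 0 of 26 members were called by edgeR, where 0.904% of all genes tested rose and 0.431% fell. At an unadjusted p below 0.05 there were 9 members, all higher, against 18.4% of all genes in either direction. *H2-Aa* was at 1.53 (SE 0.35, adjusted p = 0.0835), *H2-Ab1* at 1.59 (SE 0.41, adjusted p = 0.108), *H2-Eb1* at 1.53 (SE 0.41, adjusted p = 0.113) and *H2-DMa* at 1.58 (SE 0.47, adjusted p = 0.139) on the log2 scale. The median was 1.56 over the presenting genes, *H2-Eb2* included, and -0.023 over all genes tested. This fit shares its estimate of spread with the refed HRD1Alb pair. With either library of that pair left out, 7 members rose (*H2-Aa*, *H2-Ab1*, *H2-Eb1*, *H2-DMa*, *H2-DMb1*, *H2-Q2* and *H2-T10*) and 2 fell (*H2-Q10* and *H2-Ke6*). Without replicate 2, 10.1% of all genes rose and 11.8% fell, and the adjusted p of *H2-Aa* was 0.00784. DESeq2 on all 8 samples called 5 members higher, and 4.35% of all genes higher, and limma-trend called 0 members.

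**Figure D3:**
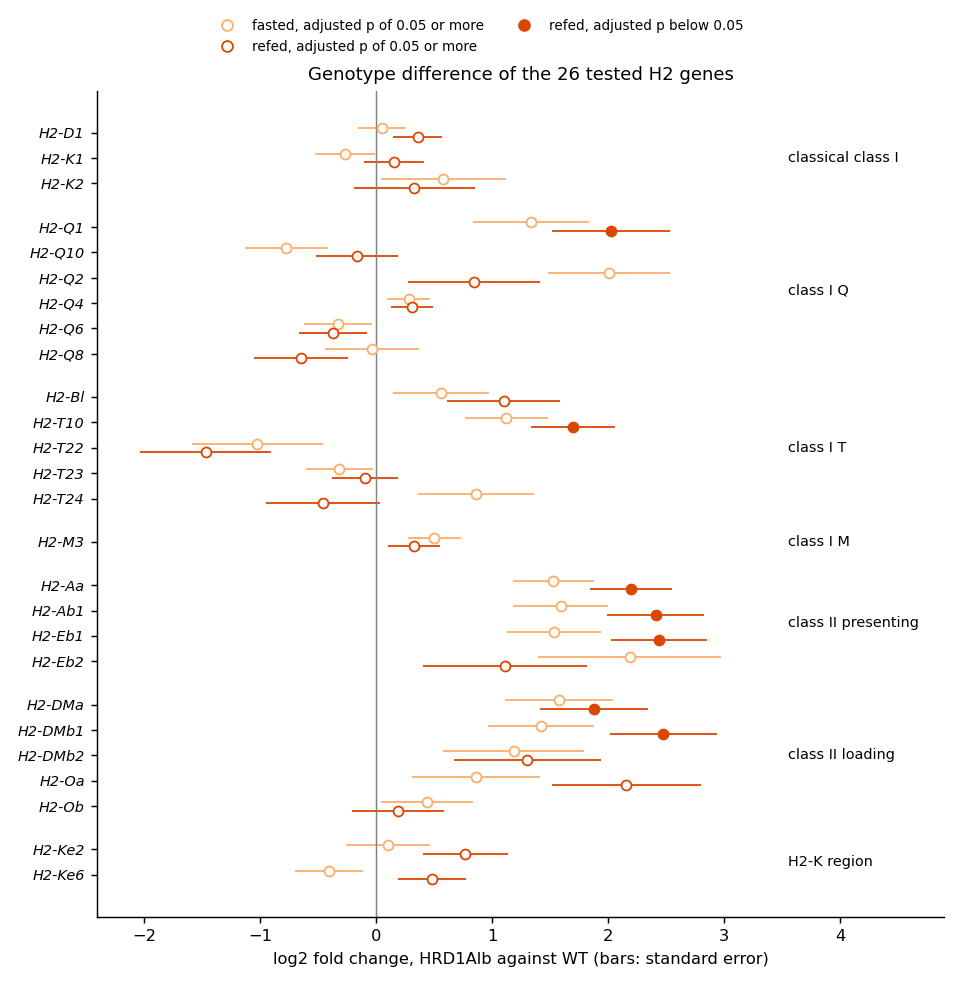
Log2 fold change of HRD1Alb against WT for the 26 tested H2 genes on the x axis, with bars for the standard error, in fasted (pale) and refed (dark) liver. Filled points have an adjusted p below 0.05, which the 7 genes called in refed liver reach and no gene in fasted liver does. The class II rows sit to the right of 0 in both states and the *H2-K1* and *H2-D1* rows close to it. Of the class II rows, *H2-Eb2*, *H2-DMb2* and *H2-Oa* reached 10 counts only in HRD1Alb libraries.

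Class I genes did not move as a block. *H2-K1* was at 1476 and 1605 CPM in fasted WT, 1241 and 1325 in fasted HRD1Alb, 1375 and 1389 in refed WT and 1129 and 1958 in refed HRD1Alb. *H2-D1* was at 539 and 596 CPM in fasted WT, 589 and 589 in fasted HRD1Alb, 555 and 593 in refed WT and 593 and 880 in refed HRD1Alb. The fasted log2 fold change was -0.26 (SE 0.26) for *H2-K1* and 0.054 (SE 0.21) for *H2-D1*, and only *H2-K1* was without overlap between the genotypes. In refed liver it was 0.16 (SE 0.26) and 0.36 (SE 0.21). None of these passed the test with all samples. Without refed HRD1Alb replicate 2 the refed values were -0.29 and 0.048, also not called, and without replicate 1 they were 0.51 (adjusted p = 0.0151) and 0.62 (adjusted p = 0.00473), so the sign for *H2-K1* turned with the library left out.

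*H2-Q10* was at 1846 and 1620 CPM in fasted WT and 941 and 1090 CPM in fasted HRD1Alb, with no overlap. In refed liver it was at 1453 and 1532 CPM in WT, and the HRD1Alb libraries lay on either side of these, at 803 and 1863 CPM. Its log2 fold change was -0.77 (SE 0.36, adjusted p = 0.306) in fasted and -0.16 (SE 0.35, adjusted p = 0.759) in refed liver. Without refed HRD1Alb replicate 2, it fell by 0.77 (adjusted p = 0.0104) in fasted and by 0.89 (adjusted p = 0.0109) in refed liver. Markers of hepatocytes, the cells that make *H2-Q10*, were also lower in sum in fasted HRD1Alb: 4 of them summed to 126028 and 140809 CPM in fasted WT, 85447 and 87588 in fasted HRD1Alb, 102500 and 110736 in refed WT and 63939 and 108534 in refed HRD1Alb. The sum is mostly *Alb*, and *Ahsg* went the other way, at 7444 and 9676 CPM in fasted WT and 11270 and 10689 CPM in fasted HRD1Alb. The part of these markers in the *H2-Q10* values was not tested.

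*H2-T23* showed the same split, at 147 and 137 CPM in refed WT and 89.7 and 175 CPM in refed HRD1Alb. Its fasted values were 157 and 173 CPM in WT and 133 and 132 CPM in HRD1Alb. The refed log2 fold change of *H2-T23* was -0.10 (SE 0.29) with all samples, and it fell by 0.66 (adjusted p = 0.0101) without replicate 2 and was higher by 0.31 (adjusted p = 0.0492) without replicate 1.

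*H2-Q1* and *H2-T10* were the class I genes that rose in refed liver. *H2-Q1* was at 2.32 and 2.57 CPM in refed WT and 11.6 and 8.36 CPM in refed HRD1Alb, a log2 fold change of 2.03 (SE 0.51, adjusted p = 0.0456), and it was the call lost when replicate number entered as a block. Its fasted WT samples were wide apart, at 1.07 and 3.70 CPM, below 6.57 and 5.48 CPM in HRD1Alb. *H2-T10*, a gene of the T10/T22 pair recognized by γδ T cells and annotated by GENCODE as a polymorphic pseudogene, was at 2.52 and 1.68 CPM in refed WT and 4.82 and 8.86 CPM in refed HRD1Alb. Its log2 fold change was 1.70 (SE 0.36, adjusted p = 0.0313), and after fasting it stood at 2.22 and 1.97 CPM in WT and 5.16 and 3.98 CPM in HRD1Alb. *H2-T22*, with which it shares most of its shared words, was at 0.494 and 0.394 CPM in refed WT and 0.203 and 0.110 CPM in refed HRD1Alb, and was not called.

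*H2-M3*, which presents N-formylated bacterial peptides and was the highest M gene, was at 2.09 and 2.34 CPM in fasted WT, 2.82 and 3.47 in fasted HRD1Alb, 3.14 and 3.49 in refed WT and 4.16 and 4.15 in refed HRD1Alb. The genotypes did not overlap in either state, but the log2 fold changes of 0.50 (SE 0.23) and 0.33 (SE 0.23) did not pass the test. *H2-Ke6*, a steroid dehydrogenase gene of the H2-K region, was at 57.8 and 58.9 CPM in fasted WT, 41.1 and 46.9 in fasted HRD1Alb, 60.4 and 59.5 in refed WT and 56.2 and 111 in refed HRD1Alb. Its log2 fold change was -0.41 (SE 0.29) in fasted and 0.48 (SE 0.29) in refed liver, the latter -0.090 without refed HRD1Alb replicate 2. Its transcript shares 62.9% of its words with the read-through gene *Gm20427*.

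**Figure D4:**
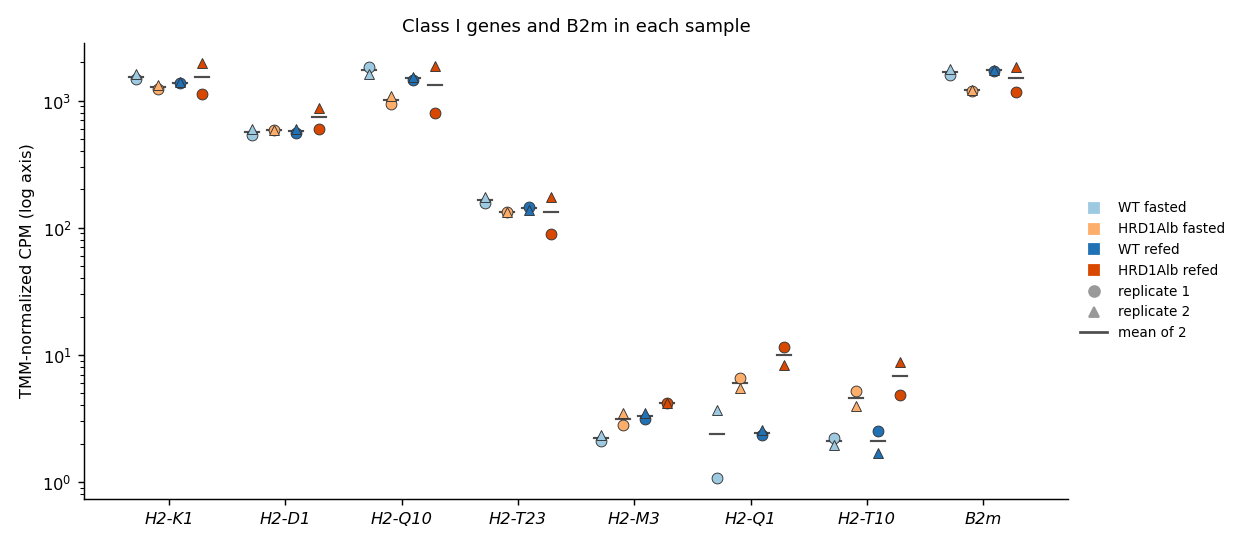
CPM on a log axis for 7 class I genes and *B2m* in each of the 8 samples, marked as in the class II plot. The refed HRD1Alb samples lie on either side of refed WT for *H2-K1*, *H2-Q10*, *H2-T23* and *B2m*, while *H2-Q1* and *H2-T10* are above WT in all HRD1Alb samples.

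The pathway genes around these members were taken from lists of other genes. *B2m*, the light chain of class I, was at 1595 and 1766 CPM in fasted WT, 1196 and 1213 in fasted HRD1Alb, 1715 and 1747 in refed WT and 1175 and 1846 in refed HRD1Alb. Of 9 light chain and peptide loading genes, 0 were called in either genotype comparison with all 8 samples. In fasted liver *B2m*, *Tap1* and *Tap2* were each lower in all 19 alternative fits and were called in some of them. In refed liver they were lower in 18, 19 and 18 of these fits. *Tap1* and *Tap2*, the peptide transporter, had log2 fold changes of -0.79 (SE 0.24) and -0.56 (SE 0.29) in fasted liver, and *Tapbp*, the tapasin gene, of 0.13 (SE 0.23). In refed liver they were -0.44, -0.067 and 0.20. Of 5 immunoproteasome and PA28 genes 0 were called with all 8 samples. The subunits *Psmb8* and *Psmb9* had fasted log2 fold changes of -0.60 and -0.55, lower in all 19 alternative fits and called in some of them. In refed HRD1Alb they were at 10.6 and 6.58 CPM in replicate 1 but at 41.0 and 24.8 CPM in replicate 2, on either side of 20.9 and 20.7 CPM and 13.1 and 14.2 CPM in refed WT. The median log2 fold change of the 9 loading genes was -0.39 in fasted and -0.096 in refed liver, and -0.39 and -0.15 without replicate 2. For the 5 immunoproteasome and PA28 genes it was -0.074 and 0.49, and -0.074 and -0.28 without replicate 2.

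Class II accessory genes were higher in the same samples as the class II chains. Of 7, 5 rose in refed and 2 in fasted HRD1Alb liver, and all 7 had a positive log2 fold change in both. Without refed HRD1Alb replicate 2 the order turned, with 3 in refed and 5 in fasted liver, and *Cd80* and *Cd86* were not called in refed liver. *Cd74*, the invariant chain, was at 21.4 and 21.7 CPM in fasted WT, 41.3 and 66.9 in fasted HRD1Alb, 30.2 and 19.1 in refed WT and 68.2 and 177 in refed HRD1Alb, with a refed log2 fold change of 2.31 (SE 0.47, adjusted p = 0.0288). *Ctss*, cathepsin S, which degrades the invariant chain, rose by 1.53 (SE 0.25, adjusted p = 0.0429) in fasted and 1.77 (SE 0.25, adjusted p = 0.0123) in refed liver. *Cd83*, a surface protein of antigen-presenting cells, rose by 2.001 (SE 0.32, adjusted p = 0.0429) and 1.83 (SE 0.32, adjusted p = 0.0196). The costimulatory genes *Cd80* and *Cd86* rose in refed liver by 2.64 (SE 0.69, adjusted p = 0.0499) and 1.33 (SE 0.32, adjusted p = 0.0421). *Cd80* had few counts, at 0.124 and 0.0263 CPM in refed WT, the latter below 3 counts. In refed HRD1Alb it was at 0.389 and 0.592 CPM.

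Of 12 regulators of class I and II transcription, 3 fell in refed HRD1Alb liver and 0 were called in fasted liver, whereas 6 and 4 fell without refed HRD1Alb replicate 2. *Nlrc5*, the class I transactivator, was at 22.5 and 25.8 CPM in refed WT and 14.2 and 12.0 CPM in refed HRD1Alb (log2 fold change -0.88, SE 0.19, adjusted p = 0.0311). *Irf2* fell by 1.205 (SE 0.24, adjusted p = 0.0269) and *Nfyb*, a subunit of the factor that binds the Y box, by 0.75 (SE 0.15, adjusted p = 0.0265). *Ciita*, the class II transactivator, was at 0.573 and 0.681 CPM in fasted WT, 1.15 and 1.53 in fasted HRD1Alb, 1.09 and 0.709 in refed WT and 1.46 and 0.878 in refed HRD1Alb. It was called in neither state, and its refed groups overlapped.

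Of 14 interferon gamma targets, 2 fell in fasted HRD1Alb liver and 0 rose, and in refed liver 3 fell and 1 rose. These were 4 and 0 in fasted and 4 and 1 in refed liver without refed HRD1Alb replicate 2. Their refed median log2 fold change was 0.023, with 7 of 14 positive. *Irgm1*, an immunity-related GTPase, fell by 0.9995 (SE 0.15, adjusted p = 0.0349) in fasted and 0.67 (SE 0.15, adjusted p = 0.0333) in refed liver, and *Irgm2* fell by 1.14 (SE 0.19, adjusted p = 0.0456) in fasted liver. *Iigp1* and *Gbp7* fell in refed liver by 1.33 (SE 0.16, adjusted p = 0.00968) and 1.04 (SE 0.24, adjusted p = 0.0390), and the chemokine *Cxcl10* rose by 1.12 (SE 0.27, adjusted p = 0.0403). *Iigp1*, at 390 and 402 CPM in fasted WT and 219 and 233 CPM in fasted HRD1Alb, made up most of the summed CPM of this list in fasted liver. Of 14 type I interferon targets, 0 were called in either genotype comparison by edgeR, with 4 lower in fasted and 4 higher in refed liver at an unadjusted p below 0.05. Of the same targets, without refed HRD1Alb replicate 2, 4 fell in fasted liver and 2 rose and 2 fell in refed liver. Of 9 tested class I-like genes outside H2, 0 were called in fasted liver and 1 rose in refed liver, *Procr*, by 1.67 (SE 0.38, adjusted p = 0.0370). Among these 9, 1 fell in fasted liver and 2 rose and 2 fell in refed liver without refed HRD1Alb replicate 2.

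Markers of several cell types were higher in the same samples, both of cells that mainly make class II and of others. The 7 tested Kupffer cell markers summed to 95.2 to 111 CPM in the 4 WT samples and 240 to 581 CPM in the 4 HRD1Alb samples. Of these 7, 6 rose in refed and 0 in fasted liver, and without refed HRD1Alb replicate 2 they were 6 and 7. *Clec4f*, specific to Kupffer cells, was at 38.9 and 30.4 CPM in fasted WT and 101 and 82.0 in fasted HRD1Alb, and *Marco* at 3.56 and 3.31 CPM against 22.3 and 13.2. The 3 leukocyte markers summed to 15.4 to 18.0 CPM in WT and 38.8 to 60.0 CPM in HRD1Alb, with 1 called in fasted and 3 in refed liver, and 3 in each without replicate 2. The 7 dendritic cell markers summed to 5.56 to 10.6 CPM in WT and 8.97 to 13.8 CPM in HRD1Alb, and 6 of 7 had a positive log2 fold change in both states. With all samples 0 were called in fasted and 1 in refed liver, and 3 in each without refed HRD1Alb replicate 2. *Itgax* rose by 2.49 (SE 0.41, adjusted p = 0.0170) in refed liver, while *Zbtb46* was lower in HRD1Alb without passing the test (-0.66 in fasted and -0.60 in refed liver). The 4 B cell markers found in the files summed to 2.02 to 3.26 CPM in WT and 3.05 to 5.396 CPM in HRD1Alb, with 0 called. The 8 T and NK cell markers summed to 2.46 to 3.11 CPM in WT and 3.79 to 9.17 CPM in HRD1Alb, with 1 called in refed liver, and the 4 monocyte markers to 15.6 to 18.6 and 31.9 to 79.1 CPM, with 3 called in refed liver. Those lists without refed HRD1Alb replicate 2 had 2 T and NK cell markers called in fasted and 1 in refed liver, and 1 and 3 monocyte markers. The 3 neutrophil markers summed to 1.05 and 1.56 CPM in fasted WT, 1.99 and 1.42 in fasted HRD1Alb, 1.09 and 1.87 in refed WT and 2.99 and 9.15 in refed HRD1Alb, with 1 called in refed liver and 0 without replicate 2. The 4 stellate cell markers summed to 63.0 to 106 CPM in WT and 118 to 142 CPM in HRD1Alb, with 2 called in refed liver, and 1 in each state without that library. No listed marker in the files was at 0 throughout, *Ncr1* of the NK cells was at 0 in 1 fasted WT library, and *Adgre1*, *Ly6g* and *Ighm* were not analysed here.

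Class II CPM per Kupffer marker CPM was 0.218 and 0.267 in fasted WT, 0.157 and 0.333 in fasted HRD1Alb, 0.285 and 0.207 in refed WT and 0.368 and 0.307 in refed HRD1Alb. The genotypes overlapped on this ratio in fasted liver and did not in refed liver. Per leukocyte marker CPM the values were 1.45 and 1.66, 1.36 and 2.23, 1.75 and 1.43, and 2.12 and 2.97 in the same order. In bulk liver, more cells of a type and more RNA per cell cannot be told apart, and the part of these cells in the class II result was not tested. Summed endothelial markers were at 83.7 to 99.9 CPM in WT and 91.3 to 107 CPM in HRD1Alb.

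**Figure D5:**
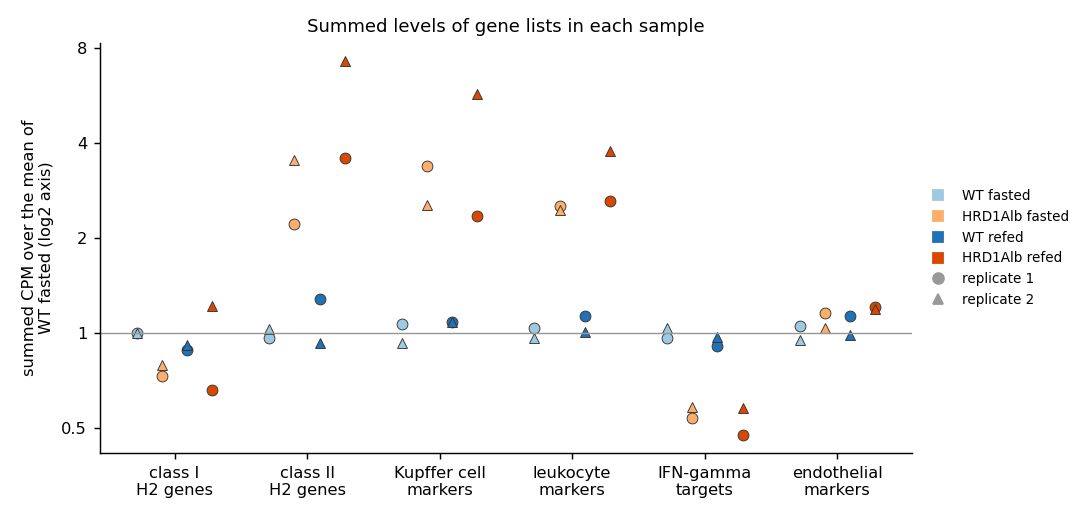
Summed CPM of 6 gene lists in each sample over the mean of the fasted WT samples, on a log2 axis, with the group in colour, replicate 1 as circles and replicate 2 as triangles. Class II genes, Kupffer cell markers and leukocyte markers are above 1 in all 4 HRD1Alb samples, interferon gamma targets, whose sum is mostly *Iigp1* in fasted liver, are below 1 in all 4, and class I genes lie on both sides of 1.

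The comparison of refed with fasted liver asks how each genotype responds to food. None of the 26 members was called in either genotype by edgeR. In WT, 2 members had an unadjusted p below 0.05 against 16.3% of all genes, and 1.2% of all genes rose and 1.39% fell at the adjusted threshold. Class II genes in WT liver had a median log2 fold change of 0.19 for the presenting chains, *H2-Eb2* included, and *H2-Aa* was at 0.10 (SE 0.35). In HRD1Alb, 7 members had an unadjusted p below 0.05 against 31.6% of all genes, with 5.42% rising and 5.01% falling at the adjusted threshold. *H2-Ab1* was at 1.10 (SE 0.40, adjusted p = 0.114) and *H2-Aa* at 0.77 (SE 0.34, adjusted p = 0.167), and these values rest on the wide refed HRD1Alb pair: without replicate 1 of that group 13 members rose and 1 fell, where 25.5% of all genes rose and 27% fell. Without replicate 2 *H2-T23* alone was called, lower, where 9.25% of all genes fell. DESeq2 called *H2-Ab1* and *H2-Ke6* higher and *H2-Q2* lower in HRD1Alb, where it called 10.8% of all genes higher and 9.67% lower, and 0 members in WT. *H2-M3* in WT was at 0.58 (SE 0.23, adjusted p = 0.266).

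Around these members, the chaperone genes *Calr* and *Pdia3*, which fold class I in the endoplasmic reticulum, rose on refeeding in both genotypes, by 1.08 (SE 0.17, adjusted p = 0.0314) and 1.001 (SE 0.20, adjusted p = 0.0490) in WT and by 2.34 (SE 0.18, adjusted p = 0.00347) and 1.64 (SE 0.20, adjusted p = 0.00737) in HRD1Alb. The chemokine gene *Cxcl10* rose by 1.48 in WT and 2.70 in HRD1Alb. Of 14 type I interferon targets, 1 rose in WT, *Oasl1*, by 1.46, and 7 rose in HRD1Alb, where 1.2% and 5.42% of all genes rose. Their median log2 fold change was 0.71 in WT and 1.33 in HRD1Alb, and 0.71 and 0.96 without refed HRD1Alb replicate 2. The targets that rose in HRD1Alb with all samples included *Isg15* by 3.07 (SE 0.43, adjusted p = 0.0101) and *Oasl1* by 2.72 (SE 0.28, adjusted p = 0.00445). In HRD1Alb *Nlrc5*, *Irf2* and *Iigp1* fell by 0.97, 0.95 and 0.89 and *Irgm1* rose by 0.96. None of these genes passed the interaction test with all 8 samples, and *Calr* passed it without refed HRD1Alb replicate 2 (1.27, adjusted p = 0.0490).

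Whether the genotype difference itself changed with feeding was tested as an interaction. Of 26 members 0 passed, with 0 at an unadjusted p below 0.05, and over all genes 0% passed the adjusted and 8.42% the unadjusted threshold. DESeq2 and limma-trend also called 0. The estimate for *H2-Aa* was 0.67 (SE 0.48, adjusted p = 0.653) and for *H2-DMb1* 1.05 (SE 0.64, adjusted p = 0.627) on the log2 scale. Without refed HRD1Alb replicate 1, 8 members had a higher and 1 a lower genotype difference in refed than in fasted liver, where 16.1% of all genes were called higher and 18.3% lower. A larger class II difference after refeeding was therefore not shown with all 8 samples.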

How the data were processed

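Hepatic RNA was sequenced in 8 samples, 2 in each of 4 groups given by the labels. The authors deposited raw read counts per gene for each sample. The study's methods name ERANGE for counting, whereas the submitters' processing notes list cutadapt, STAR, HTSeq, DESeq2 and mm10, so the counting step and its strand setting are uncertain. Genes with 10 or more counts in at least 2 samples were kept, scaled by TMM and tested with the quasi-likelihood test of edgeR 4.0.16 (R 4.3.3) in 1 fit over all 8 samples, with Benjamini-Hochberg adjustment over 14379 genes and a threshold of 0.05. CPM values are TMM-normalized. The standard error is the log2 fold change over the square root of F. Groups of 2 can reach no exact permutation p below 0.333, so single values carry no such test.

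Alternatives were RLE scaling, DESeq2 1.42.0, limma-trend (limma 3.58.1), 3 filters, a replicate block, a transcript-length offset, fits on 4 samples and leaving out each library. Transcript lengths, positions and 50-base words came from GENCODE M21 and promoters from RefSeq. Replicate numbers did not pair samples (mean correlation of same-numbered deviations 0.0678). The fit was tested on simulated data. Replicates were separate libraries by a chi-square check of their counts. Members and gene lists were chosen with earlier results of these data known. Values per sample are given for *H2-K1*, *H2-D1*, *H2-Q10*, *H2-T23*, the main class II genes, the highest member of each other class and every member called, and pathway genes are named if called or if fixed by role; *H2-Oa*, *H2-Ob*, *H2-T22* and the markers named are additions made after values were seen.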

Additional observations from a re-analysis of the deposited data

How the results depend on the processing

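In fasted HRD1Alb against WT, the counts of members called (0 higher, 0 lower) became 5 higher with DESeq2 and 3 with the length offset. With only the 4 fasted samples they became 7 higher and 1 lower. Over all genes, these settings in turn called 625 of 14379, 445 of 13013 and 1154 of 14001 higher, and the last called 884 lower. Leaving out 1 library gave 0 to 7 higher and 0 to 2 lower. The refed counts (7 higher, 0 lower) became 0 higher with only the 4 refed samples, where 0 of all 13897 genes were called in either direction. They also moved with 1 library left out. For refed against fasted HRD1Alb, DESeq2 gave 2 higher and 1 lower, and leaving out 1 library 0 to 13 higher and 0 to 1 lower. The interaction ran from 0 to 8 higher and 0 to 1 lower. With the length offset and without refed HRD1Alb replicate 2, chosen after seeing the data, 7 rose and 3 fell in fasted liver, 6 rose and 2 fell in refed liver and 1 fell on refeeding in HRD1Alb. The cause of these shifts was not tested.

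Replicate numbers are only shared names. With the replicate block 6 members rose in refed liver, *H2-Q1* being lost, and with the block and length offset 3 rose in fasted liver. The block alone changed no other count of members.

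The class II fold changes kept their sign in all 19 alternatives in both feeding states for *H2-Aa*, *H2-Ab1*, *H2-Eb1*, *H2-DMa* and *H2-DMb1*. Signs turned for values that had not passed the test. In refed liver the length offset gave -0.19 for *H2-K1*, -0.0081 for *H2-M3*, -0.064 for *H2-Ke6*, -0.11 for *Psmb8* and -0.34 for *Psmb9*, and with the block as well -0.20, -0.0099, -0.068, -0.20 and -0.41. With the offset and without refed HRD1Alb replicate 2 the values were -0.37 for *H2-K1*, -0.023 for *H2-D1*, -0.17 for *H2-Ke6*, -0.22 for *Tapbp*, -1.05 for *Psmb8* and -1.12 for *Psmb9*. Limma-trend gave -0.092 for *Psmb9*. With 1 library left out, fasted values ran from -0.017 to 0.16 for *H2-D1* and up to 0.14 for *Nlrc5* (lowest -0.17). Refed values ran from -0.29 to 0.51 for *H2-K1*, -0.89 to 0.33 for *H2-Q10*, -0.66 to 0.31 for *H2-T23*, -0.090 to 0.90 for *H2-Ke6*, -0.56 to 0.099 for *B2m*, -0.63 to 0.35 for *Tap2*, -0.15 to 0.49 for *Tapbp*, -0.97 to 0.99 for *Psmb8*, -1.05 to 0.87 for *Psmb9* and -0.030 to 0.72 for *Ciita*.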
